A study of Mus musculus with 32 samples.

Results

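The genes described here are 10 imprinted genes, Kcnq1ot1, H19, Igf2, Peg3, Peg10, Meg3, Airn, Igf2r, Mest and Cdkn1c, out of 55385 genes quantified in 16 total RNA-seq libraries of mouse preimplantation embryos. They were taken by name with earlier results of these data known, so counts and medians of members beside all genes are description only. Each was matched by its Ensembl identifier to a symbol of the GENCODE M21 annotation. The embryos were wild type, from in vitro fertilization of B6D2F1/J oocytes with B6D2F1/J sperm, both parents being 6 to 8 weeks old. Both parents thus carry the same mixture of 2 inbred genomes, and the files hold no allele information, so every value is the sum of the maternal and the paternal allele.

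The libraries form 8 groups of 2. For 3 stages (zygote, early 2-cell, late 2-cell) embryos were kept with A-485 at 10 µM or with the solvent DMSO. A-485 blocks acetylation by CBP and p300. The window given is 4 to 20 h post in vitro fertilization (hpi). Zygotes may have been collected before it ended, so the length of exposure may differ between stages. In a separate experiment, late 2-cell embryos received 50 nM TSA (Trichostatin A), an inhibitor of histone deacetylases, from 8 to 28 hpi, or DMSO; the labels list more than one window for TSA, and the study's methods give this one for RNA. A-485 was washed out at 20 hpi, so the late 2-cell embryos of that experiment had grown without it before collection. Open chromatin was measured by ATAC-seq at the late 1-cell and the early 2-cell stage of the A-485 experiment. The comparisons ask what loss of acetylation, or failure to remove it, does to gene expression as the embryonic genome switches on.

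Imprinted genes are transcribed mainly from a single parental allele, which carries or lacks DNA methylation set down in the germline at a nearby imprinting control region. Within a cluster, a long noncoding RNA often starts at the control region and silences its protein-coding neighbours on the same chromosome, and control regions keep their germline methylation while most of the genome is reprogrammed after fertilization. Genes expressed from the paternal allele tend to promote growth of the fetus and placenta, and genes expressed from the maternal allele tend to restrain it. In early cleavage embryos much of the RNA of a gene can still be the store left by the oocyte.

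Library depth ran from 13206163 to 32585987 expected counts, and the share of counts from the 37 mitochondrially encoded genes from 4.34% to 20.7%. The late 2-cell A-485 libraries were the shallowest and had the highest mitochondrial shares, 19.5% and 20.7% against 12.3% and 10.5% in their controls. The 6 markers of oocytes and cleavage embryos (Zp3, Gdf9, Bmp15, Nlrp5, Padi6 and Oosp1) summed to 559 to 2380 FPKM and were present in every group. The 10 cumulus cell markers summed to 1.61 to 6.79 FPKM and 7 sperm markers to 1.25 to 18.9 FPKM, led in zygotes by Cyp19a1 and Prm2. The 6 fibroblast markers summed to 0.3 to 14.7 FPKM. No pair of replicate libraries was alike within counting noise. Nothing in the labels says that replicates came from separate collections of embryos, so the p-values measure only the spread between 2 libraries, which may be technical.

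Levels are given as CPM (counts scaled to library size with TMM factors over all 16 libraries) when libraries are compared. They are given as FPKM, fragments scaled to transcript length and library size, when genes are compared with each other. FPKM is also used for the sums of marker genes, the cutoff of a call and the search for patterns like that of Kcnq1ot1. The distinction matters here, because the length by which FPKM divides is estimated in each library from the transcripts found in it. For Igf2 that length ran from 1277 to 4130 bases, and late 2-cell Igf2 was higher with A-485 on the CPM scale (9.01 against 4.77) but lower on the FPKM scale (2.74 against 3.49). A gene was called up- or down-regulated when the quasi-likelihood test of edgeR gave an adjusted p under 0.05, the groups differed by 2-fold or more, and one of them or both reached a mean of 1 FPKM.

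In zygotes A-485 left the imprinted genes without a call, and the same held in early 2-cell embryos. None of 10 members passed all 3 cutoffs at zygote, where 0.00548% of 18258 genes tested were called higher and 0.0657% lower. At an unadjusted p under 0.05 there was 1 member, Kcnq1ot1, and DESeq2 called 0. Kcnq1ot1 failed the FPKM cutoff alone. Its log2 fold change was -4.90 (adjusted p = 0.00107, edgeR) or -4.95 (adjusted p = 3.8e-08, DESeq2). At early 2-cell, again 0 of 10 passed by edgeR and 0 by DESeq2, with 1 member (Peg10) at an unadjusted p under 0.05. The background there was 0.402% higher and 7.90% lower of 20872 genes.

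In late 2-cell embryos both inhibitors changed about as many members as they left alone. After A-485, 4 of the 9 members tested were up-regulated (Meg3, Peg10, Kcnq1ot1 and Peg3) and 1 was down-regulated (Igf2r), where 10.5% of all 22822 genes were called higher and 16.8% lower. The median log2 fold change of the 9 members was 0.88, beside 0.28 for all genes. After TSA, 5 of 10 were up-regulated (H19, Cdkn1c, Igf2, Peg3 and Meg3) and Igf2r was again down-regulated, where 13.8% of 23429 genes were called higher and 13.9% lower. The members' median was 1.52, beside 0.13 for all genes. The order of stages in control embryos gave fewer calls. From zygote to early 2-cell, Peg10 and Meg3 rose (background 11.2% higher, 14.9% lower), and from early to late 2-cell, Igf2r rose and Peg10 fell (background 15.9% higher, 8.92% lower). Of 9 members tested, 0 differed between the 2 sets of late 2-cell DMSO libraries by edgeR or DESeq2 (background 0.136% higher, 1.19% lower), although 2, Igf2 and Mest, had an unadjusted p under 0.05.

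**Figure D1:**
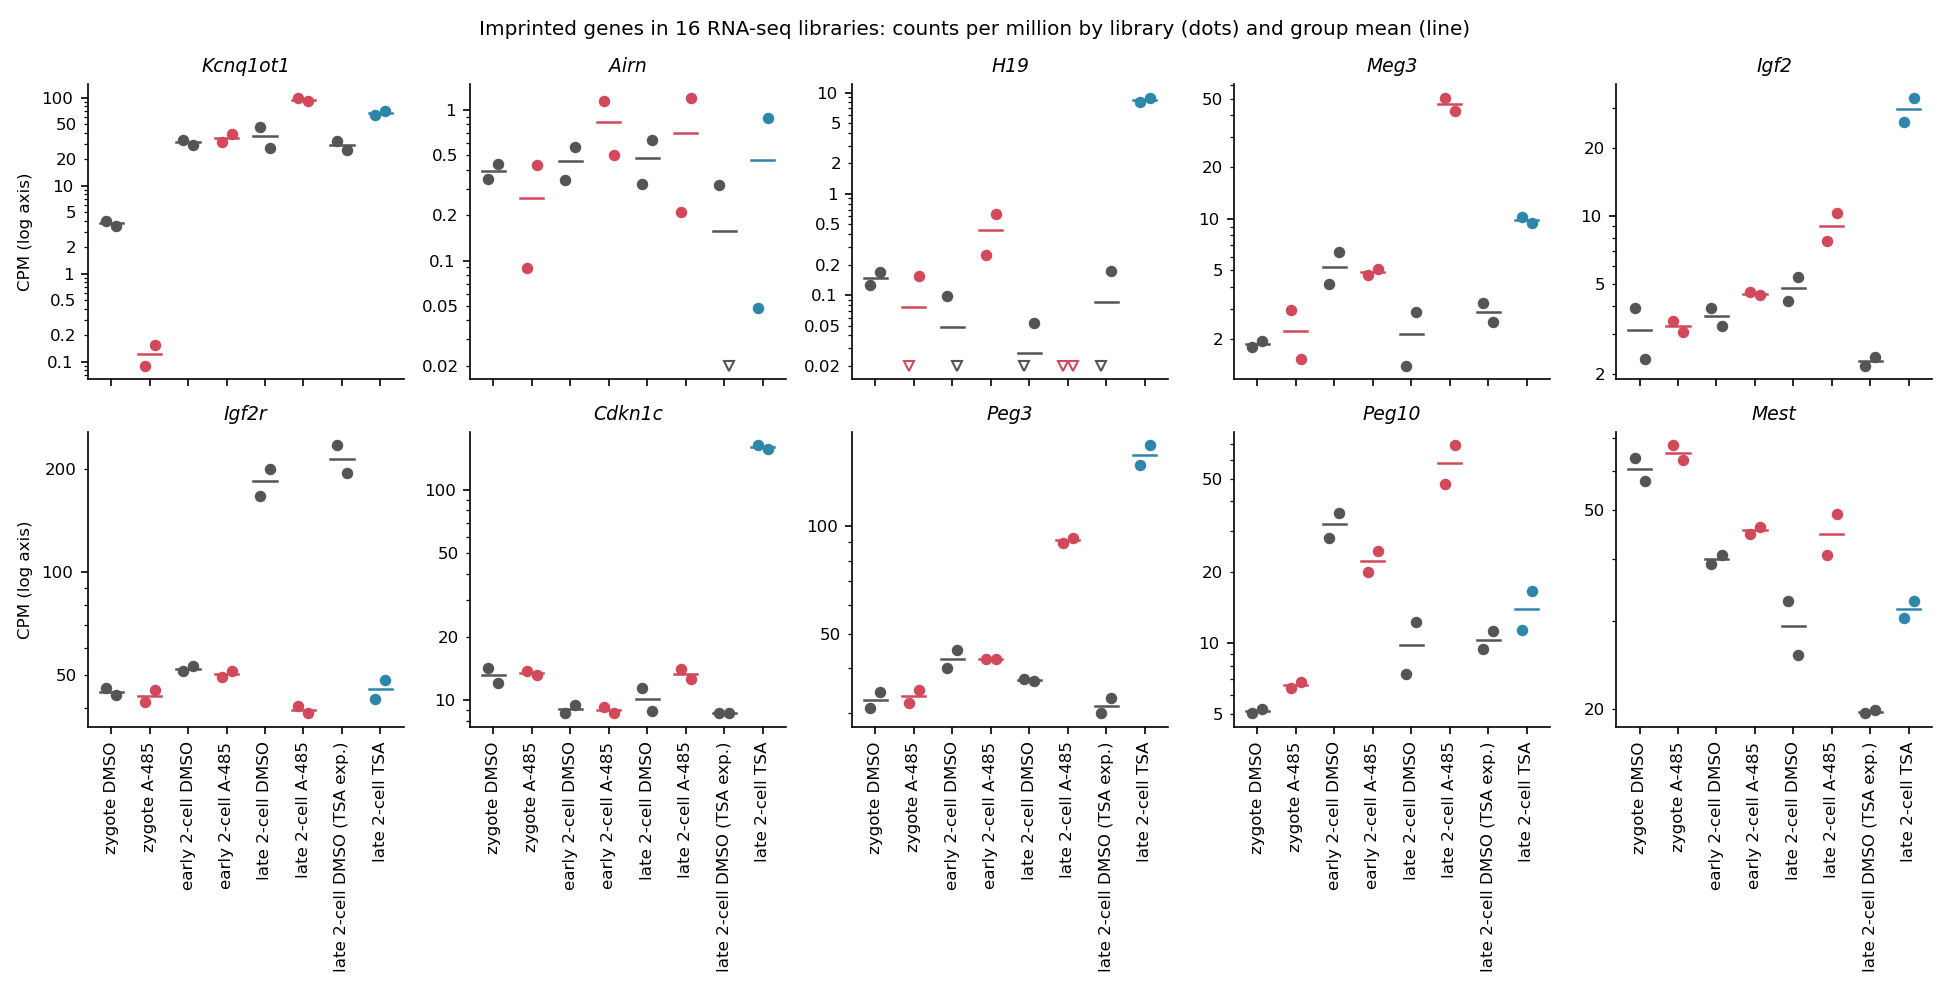
CPM of each imprinted gene (vertical log axis, a separate scale per gene) in the 16 libraries; dots are libraries, lines group means, grey is DMSO, red A-485 and blue TSA, and open triangles at the bottom mark libraries listed at 0. Kcnq1ot1 sits near 0.1 CPM in the A-485 zygotes only, Igf2r is high only in the late 2-cell controls, and H19, Igf2, Cdkn1c and Peg3 are highest with TSA.

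**Figure D2:**
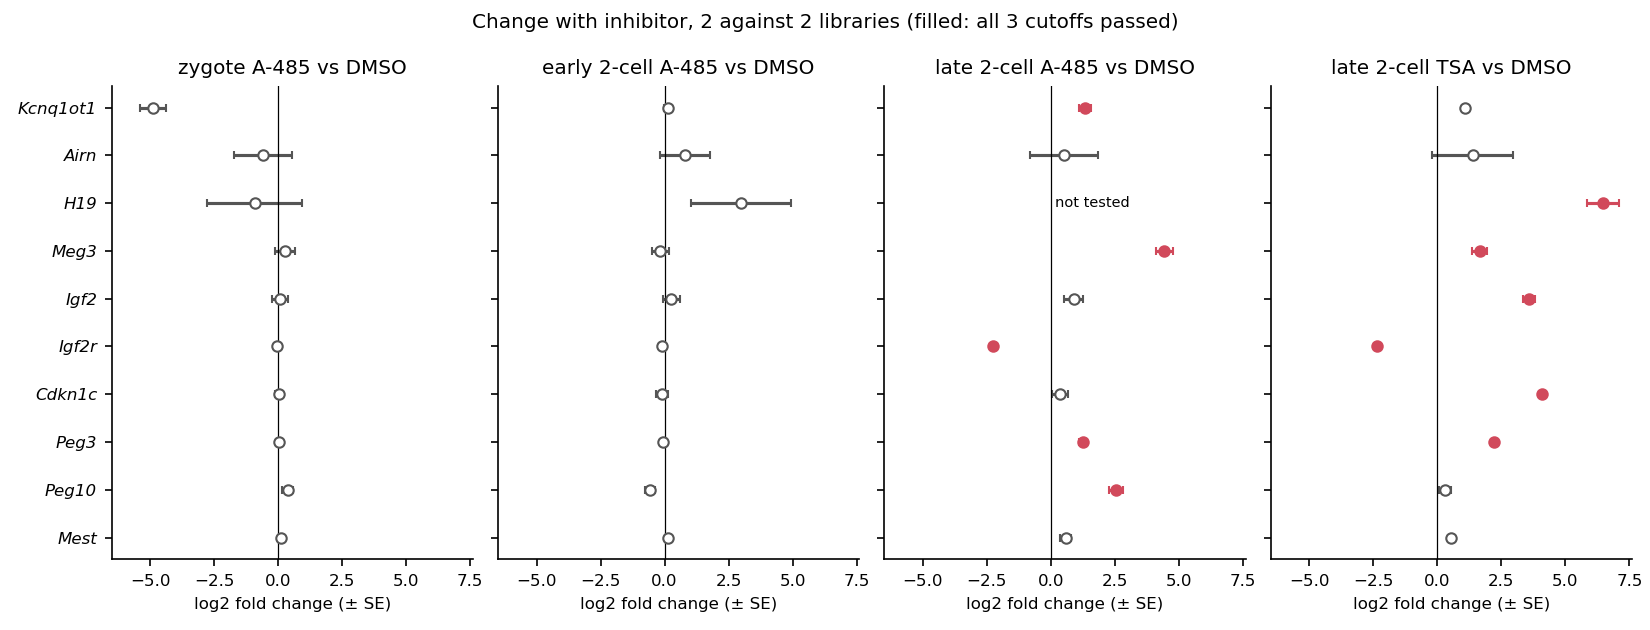
Log2 fold change of each imprinted gene with inhibitor against DMSO (horizontal axis, bars ± SE, 2 against 2 libraries) in the 4 inhibitor comparisons; filled points passed all 3 cutoffs, and H19 had too few counts to be tested in late 2-cell A-485. Filled points appear in the late 2-cell comparisons alone, Igf2r is the only filled point below 0 in each, and Kcnq1ot1 at zygote lies at -4.90 but is not filled because its FPKM is below 1.

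On the per-length scale Mest, a hydrolase-like protein gene of the paternal allele, stood first in DMSO zygotes at 56.9 ± 0.127 FPKM (SD, n = 2). Cdkn1c followed at 10.3 ± 1.58, Igf2r at 5.82 ± 0.976 and Peg3 at 4.08 ± 0.191 FPKM. The other 6 members were each below 1 FPKM. How much of this zygote RNA was left by the oocyte was not tested. By late 2-cell in the A-485 experiment's controls Igf2r (21.2 ± 3.49) and Mest (19.8 ± 5.27) were at the top with overlapping ranges. In TSA-treated late 2-cell embryos Cdkn1c stood first at 150 ± 2.94 FPKM.

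Kcnq1ot1 is an unspliced noncoding RNA of the paternal allele that starts within an intron of Kcnq1, on the opposite strand, and silences Cdkn1c and other neighbours. The annotation gives it 1 transcript of 93092 bases with 1 start (chr7:143203458-143296549 in GRCm38, minus strand). In DMSO zygotes it had 4.00 and 3.49 CPM, in A-485 zygotes 0.0897 and 0.153 CPM. These are 126 and 104 counts against 3 and 5, so the groups are far apart. The summed counts were 31-fold lower with A-485, with a 95% interval of 15.5 to 72.7 that covers counting error only. The fitted log2 fold change was -4.90 ± 0.51 (SE; adjusted p = 0.00107, edgeR). It was not called only because 0.045 FPKM in the controls is below the FPKM cutoff. Without that cutoff it was the single member among 15 genes called lower, 0.0822% of those tested.

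At the early 2-cell stage Kcnq1ot1 no longer differed by treatment. Its level had risen to 33.5 and 28.8 CPM in DMSO and stood at 31.6 and 38.8 CPM in A-485, with overlapping ranges and a log2 fold change of 0.12 ± 0.16 (adjusted p = 0.735, edgeR). From DMSO zygote to DMSO early 2-cell the rise was 3.04 ± 0.20 on the log2 scale (adjusted p = 5.4e-08, edgeR), again with both FPKM means below 1. The A-485 effect at early 2-cell differed from that at zygote by 5.07 ± 0.40 (adjusted p = 4.48e-08, edgeR interaction, a test added after the values were seen). It was the only member called in that test, in which 5.66% of 23002 genes passed.

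At late 2-cell Kcnq1ot1 went the other way. The controls had 46.7 and 26.9 CPM and the A-485 embryos 99.9 and 91.2 CPM, a log2 fold change of 1.34 ± 0.23 (adjusted p = 0.0006, edgeR). With TSA it had 63.8 and 70.6 CPM against 32.1 and 25.4, a log2 fold change of 1.09 ± 0.14 (adjusted p = 9.9e-05, edgeR), not called because the higher mean was 0.8 FPKM. The ranges of treated and control libraries did not overlap in either case. Scaled to mitochondrial counts in place of TMM, the A-485 change was 0.75 and lost its call. The TSA and A-485 effects differed by -0.13, with a 95% interval of -0.70 to 0.43. Ordered by mean CPM, late 2-cell A-485 was first (95.5) and late 2-cell TSA second (67.2). The next 4 groups (36.8 to 28.8) overlapped their neighbours, and DMSO zygotes (3.75) and A-485 zygotes (0.122) came last.

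The start of Kcnq1ot1 was the one member start that lay inside an ATAC peak in all 4 lists. Each list pools both replicates, so peaks have no spread and no test. Fold enrichment was 7.58 in late 1-cell DMSO (chr7:143296223-143297070), 5.54 in late 1-cell A-485, 11.4 in early 2-cell DMSO and 8.76 in early 2-cell A-485. These are the 65.7, 16, 87.5 and 68.4 percentiles of their lists. Its promoter from RefSeq, 300 bases around the start (chr7:143296498-143296797, GRCm38.p6, minus strand), is shown because those peaks cover it; capitals mark matches to the motif CCAAT, the CCAAT box bound by NF-Y.
Kcnq1ot1 promoter: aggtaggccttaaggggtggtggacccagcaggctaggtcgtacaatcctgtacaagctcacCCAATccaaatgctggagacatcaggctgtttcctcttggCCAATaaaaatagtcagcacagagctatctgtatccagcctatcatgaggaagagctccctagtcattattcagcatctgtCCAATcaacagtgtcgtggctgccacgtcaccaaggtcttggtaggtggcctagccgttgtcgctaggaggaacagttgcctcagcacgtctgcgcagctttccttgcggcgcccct
Both strands were searched, also for the hexamer TGCCGC that ZFP57 recognises and for the YY1 core GCCATNTT. The promoter held 3 CCAAT matches, at bases 63 to 67, 103 to 107 and 184 to 188, and no match to either other motif. Of all 32851 promoters in the table, 37.4% held CCAAT, 11.6% TGCCGC and 6.05% GCCATNTT. It held 9 CG dinucleotides, near the median of 7 over all promoters.

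Kcnq1, which overlaps Kcnq1ot1 on the opposite strand and encodes a potassium channel subunit, was not called with any inhibitor. Its level in the late 2-cell controls of the A-485 experiment was 5.41 and 4.92 CPM and with A-485 4.27 and 8.03 CPM. The libraries came from a strand-marking kit, but the strand setting of the counting is not given in the sources used here, so reads in this overlap are uncertain. The same holds for Airn and Igf2r and for Mest and Copg2.

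Airn is the noncoding RNA of the paternal allele that runs antisense to Igf2r and silences it on that chromosome in later embryos. Its counts were near the limit of detection. It had between 0 and 23 counts in the 16 libraries, at most 1.2 CPM, and replicate libraries differed as widely as 1 and 19 counts in TSA. No neighbouring pair of groups in its order was separated beyond the spread, and no change was detectable in these counts. The length by which its FPKM divides ran from 280 to 990 bases, in a locus of 118826 bp. The counts thus say little about RNA from the rest of the locus.

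H19, a noncoding RNA of the maternal allele that is abundant in fetal tissues and placenta, was practically silent except after TSA. All 14 libraries without TSA held 0 to 14 counts, and both late 2-cell A-485 libraries held 0, which allows up to 3 counts in each. The TSA libraries held 168 and 191 counts (8.08 and 8.86 CPM) against 0 and 4 counts in their controls (0 and 0.172 CPM). The summed counts were 103-fold higher, with a 95% interval of 39.9 to 380 for counting error. The fitted log2 fold change of 6.46 ± 0.63 (adjusted p = 1.2e-05, edgeR) rests on those 4 control counts, and was 10.53 without the control library that holds them and 5.46 without the one at 0. In late 2-cell A-485 H19 did not reach 10 counts and was not tested.

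Meg3, a noncoding RNA of the maternal allele of the Dlk1-Dio3 region, was among the members most raised by A-485. In late 2-cell controls it had 1.39 and 2.86 CPM and with A-485 50.6 and 42.2 CPM, a log2 fold change of 4.43 ± 0.34 (adjusted p = 7.37e-07, edgeR). With TSA it had 10.3 and 9.51 CPM against 3.23 and 2.50, a log2 fold change of 1.65 ± 0.28 (adjusted p = 0.000658, edgeR). Both treated groups lay wholly above their controls, and the TSA effect was the smaller by 2.67 ± 0.43 on the log2 scale (difference -2.67, adjusted p = 0.0002, edgeR interaction). In controls it rose from 1.78 and 1.95 CPM at zygote to 4.15 and 6.39 CPM at early 2-cell (log2 fold change 1.48 ± 0.37, adjusted p = 0.00521, edgeR), a call that mitochondrial scaling removed (0.22). It then stood at -1.31 ± 0.48 on the log2 scale at late 2-cell (adjusted p = 0.0518, edgeR), which missed the cutoff. At early 2-cell A-485 and DMSO overlapped (4.70 and 5.13 against 4.15 and 6.39 CPM).

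Some neighbours of Meg3 were also called. In late 2-cell A-485, 3 of the 5 other genes of its cluster that could be tested were up-regulated and none was down-regulated, beside 10.5% of all genes called higher. In TSA 4 of 6 were up-regulated, beside 13.8%. Rian, a noncoding RNA downstream of Meg3, had 1.29 and 2.43 CPM in controls and 26.2 and 14.6 CPM with A-485 (log2 fold change 3.42 ± 0.43, adjusted p = 5.69e-05, edgeR). Dio3, which encodes a thyroid hormone deiodinase and is expressed from the paternal allele, had 0.647 and 1.27 CPM against 14 and 10.4 CPM (3.64 ± 0.49, adjusted p = 9.31e-05, edgeR). Dlk1, a Notch-family ligand gene of the paternal allele, had 0 and 0.265 CPM against 5.88 and 5.38. RNAs normally made from opposite parental alleles thus rose in the same libraries. The fourth called with TSA was Mirg, a microRNA host transcript.

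Igf2, the growth factor gene of the paternal allele that shares its enhancers with H19, rose with TSA. It had 26 and 33.2 CPM with TSA against 2.17 and 2.37 in controls, a log2 fold change of 3.57 ± 0.23 (adjusted p = 4.14e-07, edgeR), with no overlap. With A-485 it had 7.70 and 10.3 CPM against 4.2 and 5.34, a log2 fold change of 0.88 ± 0.39 that did not pass (adjusted p = 0.098, edgeR). The 2 sets of controls themselves differed by 1.09 ± 0.38 (adjusted p = 0.21, edgeR), and against the controls of the TSA experiment the A-485 value was 1.90 and passed, a comparison added after the values were seen. The TSA effect exceeded the A-485 effect by 2.80 ± 0.41 (adjusted p = 8.41e-05, edgeR interaction). H19 and Igf2, which the enhancers serve on opposite alleles, were both up-regulated with TSA. Of 4 other genes of their cluster, 2 could be tested and 0 were called, beside 13.8% of all genes called higher. The median log2 fold change of those 2 was 4.31, beside 0.13 for all genes.

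Igf2r, the receptor that takes up IGF2 and sends it to lysosomes, is expressed from the maternal allele in later embryos and was called higher in control embryos between early and late 2-cell. It had 45.7 and 43.6 CPM at zygote and 51.2 and 53 CPM at early 2-cell, with no call between them, and then 167 and 200 CPM at late 2-cell. That rise was 1.82 ± 0.13 on the log2 scale (adjusted p = 6.26e-07, edgeR). The late 2-cell controls of the TSA experiment had 234 and 194 CPM, overlapping the other set. With A-485 the late 2-cell embryos had 40.6 and 38.6 CPM, a log2 fold change of -2.25 ± 0.15 (adjusted p = 2.15e-07, edgeR). With TSA they had 42.6 and 48.4 CPM, a log2 fold change of -2.37 ± 0.12 (adjusted p = 7.56e-08, edgeR). The rise and the fall with A-485 share the same control libraries. Treated late 2-cell embryos were not tested against early 2-cell controls. On the TMM scale both treated groups lay below those controls. Scaled to total counts the A-485 libraries (43.9 and 40.9 CPM) again lay below the early 2-cell controls (48.7 and 51.1 CPM). The TSA libraries overlapped them on that scale (47.3 and 53.5 CPM). The TSA and A-485 effects differed by -0.01, with a 95% interval of -0.37 to 0.35. At early 2-cell A-485 gave 49.3 and 51.4 CPM and no change (-0.11 ± 0.12, adjusted p = 0.637, edgeR). The A-485 effect at late 2-cell was thus lower than at early 2-cell by -2.05 ± 0.19 on the log2 scale (adjusted p = 1.29e-08, edgeR interaction).

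A peak over the start of Igf2r was listed in both A-485 lists (chr17:12769319-12770158, fold enrichment 6.87, at late 1-cell and chr17:12769353-12770173, 5.20, at early 2-cell) and in neither DMSO list. The 2 values are the 50.2 and 7.04 percentiles of their lists, and without replicates the presence of a peak in a list has no error. The promoter from RefSeq (chr17:12769657-12769956, GRCm38.p6, minus strand) is shown for its contrast with that of Kcnq1ot1. It contains 34 CG dinucleotides, the most of the 13 member promoters in the table (range 1 to 34, median 13), and the upper quartile of all promoters is 20.
Igf2r promoter: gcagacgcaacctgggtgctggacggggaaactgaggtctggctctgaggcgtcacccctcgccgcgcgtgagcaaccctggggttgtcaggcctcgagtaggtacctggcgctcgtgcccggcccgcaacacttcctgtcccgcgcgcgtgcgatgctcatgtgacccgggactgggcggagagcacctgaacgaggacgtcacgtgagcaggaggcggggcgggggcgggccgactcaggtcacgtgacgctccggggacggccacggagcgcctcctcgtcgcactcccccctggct
None of the 3 motifs matched in this window, which says only that these letters are not in it.

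Cdkn1c, which encodes a cyclin-dependent kinase inhibitor that restrains growth and is expressed from the maternal allele, was called in the TSA comparison and in no other under TMM scaling. It had 163 and 156 CPM with TSA against 8.67 and 8.71 in controls, a log2 fold change of 4.07 ± 0.11 (adjusted p = 2.6e-09, edgeR), or 16.8-fold. With A-485 it had 14.1 and 12.6 CPM against 11.5 and 8.89, a log2 fold change of 0.35 ± 0.30 (adjusted p = 0.379, edgeR). The 2 effects differed by 3.82 ± 0.24 (adjusted p = 3.19e-09, edgeR interaction). In control embryos it stayed between 8.67 and 14.3 CPM throughout. Kcnq1ot1, its silencer in later embryos, had 63.8 and 70.6 CPM in these same TSA libraries, 1.09 above its controls on the log2 scale. Of the 8 other genes of this cluster tested with TSA, 2 were up-regulated and 3 down-regulated, beside 13.8% and 13.9% of all genes. Up-regulated were Ascl2 (log2 fold change 4.24 ± 0.55), a placental transcription factor gene, and Cd81 (3.34 ± 0.60). Tssc4 and Nap1l4 were among those down-regulated. None of 6 was called with A-485, beside 10.5% of all genes called higher and 16.8% lower. So few genes do not set this cluster apart from those shares.

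Peg3, a zinc-finger gene of the paternal allele, rose with both inhibitors. It had 89.7 and 92.7 CPM with A-485 against 37.2 and 36.9, a log2 fold change of 1.26 ± 0.15 (adjusted p = 4.2e-05, edgeR). It had 148 and 168 CPM with TSA against 29.9 and 33, a log2 fold change of 2.20 ± 0.11 (adjusted p = 5.99e-08, edgeR). The TSA effect was the larger by 1.04 ± 0.18 (adjusted p = 0.000394, edgeR interaction). Scaled to mitochondrial counts, the A-485 change was 0.63 and was not called. In controls Peg3 stayed between 29.9 and 45.1 CPM at all stages.

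Usp29, a deubiquitinase gene that starts next to Peg3 on the other strand and is also expressed from the paternal allele, moved the opposite way. In late 2-cell controls it had 185 and 164 CPM and with A-485 38.4 and 37.3 CPM, a log2 fold change of -2.24 ± 0.14 (adjusted p = 1.75e-07, edgeR). With TSA it had 22.4 and 20.5 CPM against 158 and 173, a log2 fold change of -3.08 ± 0.10 (adjusted p = 6.6e-09, edgeR). It was already lower with A-485 at early 2-cell, with 49.7 and 35.7 CPM against 103 and 73.4 (-1.11 ± 0.18, adjusted p = 0.00112, edgeR), where Peg3 was at -0.06 ± 0.13. Zim1, a zinc-finger gene of the same cluster expressed from the maternal allele, rose with Peg3, from 4.57 and 3.02 to 13.2 and 12.7 CPM with A-485 and from 3.78 and 3.97 to 22.6 and 17.9 CPM with TSA.

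**Figure D3:**
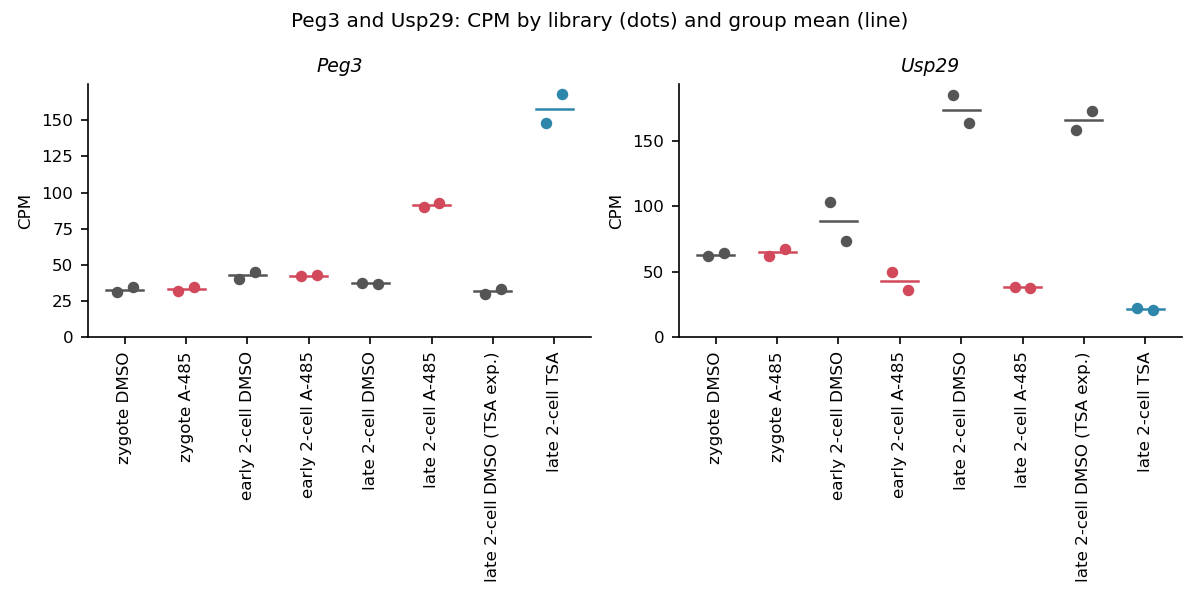
CPM (vertical linear axis from 0) of Peg3 and of its neighbour Usp29 in the 8 groups; dots are libraries, lines group means, grey is DMSO, red A-485 and blue TSA. In late 2-cell embryos Peg3 is higher and Usp29 lower with each inhibitor than in the controls beside it.

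Both A-485 peak lists held a peak in the Peg3 control region, and neither DMSO list did. The peaks lay in an intron, 677 bp (chr7:6729428-6729742, fold enrichment 8.04, late 1-cell) and 426 bp (chr7:6729446-6729993, 6.46, early 2-cell) from the nearest annotated start. These values are the 73.9 and 26.4 percentiles of their lists, with no replicate check. Among the 7094 strongest peaks of its list, early 2-cell A-485 had none in this region. The 297 bases that both peaks share (chr7:6729446-6729742, GRCm38.p6, minus strand) are printed because the stretch lies in a control region and holds several of the motifs. Capitals mark TGCCGC, GCCATNTT and CCAAT on either strand.
Peg3 intron, shared peak: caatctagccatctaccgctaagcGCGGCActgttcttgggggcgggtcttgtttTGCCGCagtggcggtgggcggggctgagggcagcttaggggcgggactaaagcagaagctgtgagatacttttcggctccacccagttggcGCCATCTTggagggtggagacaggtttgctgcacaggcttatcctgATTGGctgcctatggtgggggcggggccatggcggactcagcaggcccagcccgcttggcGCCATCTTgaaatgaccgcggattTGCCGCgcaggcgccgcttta
It held 3 matches to TGCCGC, 2 to GCCATNTT (each GCCATCTT) and 1 to CCAAT, with 20 CG dinucleotides. In windows of 297 bases centred on all 13712 early 2-cell A-485 peaks, 19.7% held TGCCGC, 7.13% GCCATNTT and 35.8% CCAAT. The stretch was chosen partly for holding these motifs, so the shares beside it are description only. No motif match shows binding.

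Peg10, a retrotransposon-derived gene of the paternal allele needed by the placenta, was called in both stage comparisons and in late 2-cell A-485. In controls it rose from 5.02 and 5.24 CPM at zygote to 28 and 35.7 CPM at early 2-cell (log2 fold change 2.62 ± 0.20, adjusted p = 1.77e-07, edgeR). It then fell to 7.35 and 12.3 CPM at late 2-cell (-1.70 ± 0.26, adjusted p = 0.000262, edgeR). With A-485 the late 2-cell embryos had 47.6 and 69.1 CPM, a log2 fold change of 2.53 ± 0.28 (adjusted p = 1.74e-05, edgeR). The stage comparison and the A-485 comparison share the late 2-cell controls. With TSA it had 11.3 and 16.6 CPM against 9.46 and 11.2, with no call (0.31 ± 0.24, adjusted p = 0.343, edgeR), and the 2 effects differed by -2.12 ± 0.37 (adjusted p = 0.000496, edgeR interaction). At early 2-cell it had 20 and 24.6 CPM with A-485, below the 28 and 35.7 of the controls without passing (-0.57 ± 0.18, adjusted p = 0.0615, edgeR). Sgce, which starts beside Peg10 on the opposite strand and is expressed from the same allele, rose with A-485 from 0.0462 and 0.318 to 2.17 and 5.95 CPM (4.43 ± 0.96, adjusted p = 0.0033, edgeR). It was at 0.625 and 0.464 CPM with TSA against 0.355 and 0.560 in controls.

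Mest was lower at each later stage in controls, under the fold cutoff at both steps with TMM scaling. It had 63.7 and 57.4 CPM at zygote, 39.1 and 40.8 at early 2-cell (-0.62 ± 0.12, adjusted p = 0.000799, edgeR) and 32.9 and 25.7 at late 2-cell (-0.44 ± 0.18, adjusted p = 0.0783, edgeR). The first step was -1.88 and was called under mitochondrial scaling, and the second was -1.0 and was called with the late 2-cell controls of the TSA experiment. At late 2-cell it had 40.7 and 49.1 CPM with A-485 (0.58 ± 0.21, adjusted p = 0.0447, edgeR) and 30.5 and 32.9 CPM with TSA against 19.6 and 19.9 (0.55 ± 0.14, adjusted p = 0.00877, edgeR). Both changes were under the fold cutoff. Scaled to mitochondrial counts the A-485 value turned to -0.04. Against the controls of the TSA experiment, a comparison added after the values were seen, it was 1.10 and passed. Copg2, which overlaps Mest on the opposite strand, was not called with any inhibitor, with the reads of the overlap uncertain for both genes. It fell from early to late 2-cell (-1.24 ± 0.17, adjusted p = 8.08e-05, edgeR). The other neighbour tested, Klf14, was called higher with both inhibitors. Klf14 had 4.13 and 2.91 CPM with A-485 against 0 and 0, and 3.8 and 4.03 CPM with TSA against 0.118 and 0.

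Tested as differences between stages, 5 members had an A-485 effect at late 2-cell unlike that at early 2-cell, where 20.0% of 25141 genes passed: Meg3, Peg10, Peg3 and Kcnq1ot1 were higher and Igf2r lower. Between the TSA and A-485 effects at late 2-cell, 5 members differed and 17.3% of 26554 genes did: Cdkn1c, Igf2 and Peg3 were higher with TSA, Meg3 and Peg10 lower. For H19 the difference was 8.83 ± 3.34 and missed the threshold (adjusted p = 0.0851, edgeR).

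Several measures moved with the late 2-cell treatments. In the A-485 libraries the oocyte and embryo markers summed to 1380 and 1390 FPKM against 729 and 782 in controls, and the mitochondrial share was higher. The fibroblast markers summed to 5.83 and 10.1 FPKM with A-485 against 0.58 and 0.48, and to 14.7 and 13.7 with TSA against 1.81 and 2.78. Postn led this list, 2 of the 6 markers were at 0 in both A-485 libraries and 1 in both TSA libraries. The 6 markers of the 2-cell programme summed to 57.9 and 60.8 FPKM with A-485 against 224 and 239, but to 404 and 346 with TSA against 143 and 168. The marker sums are in FPKM, so the lengths estimated in each library enter them. The part of these shifts in the changes of the imprinted genes was not tested. In bulk embryos, fewer embryos or cells expressing a gene and less RNA per cell cannot be told apart.

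The choice of scaling shifted all genes together and with them the members near the cutoffs. Against TMM, mitochondrial scaling moved the median of all genes by -1.26 log2 units from zygote to early 2-cell and by -0.63 in late 2-cell A-485. Total counts moved it by 0.19 in late 2-cell A-485 and by 0.35 in TSA. Of the calls over all genes in late 2-cell A-485, 38.6% were higher under TMM, 46.1% under total counts and 21.4% under mitochondrial scaling. In TSA these shares were 49.9% under TMM and 63.3% under total counts, and from zygote to early 2-cell 42.9% under TMM and 13.9% under mitochondrial scaling. Relative to those shifts Meg3, Peg10 and Igf2r kept their calls in late 2-cell A-485 under all 3 scalings, as did all 6 members called in TSA.

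**Figure D4:**
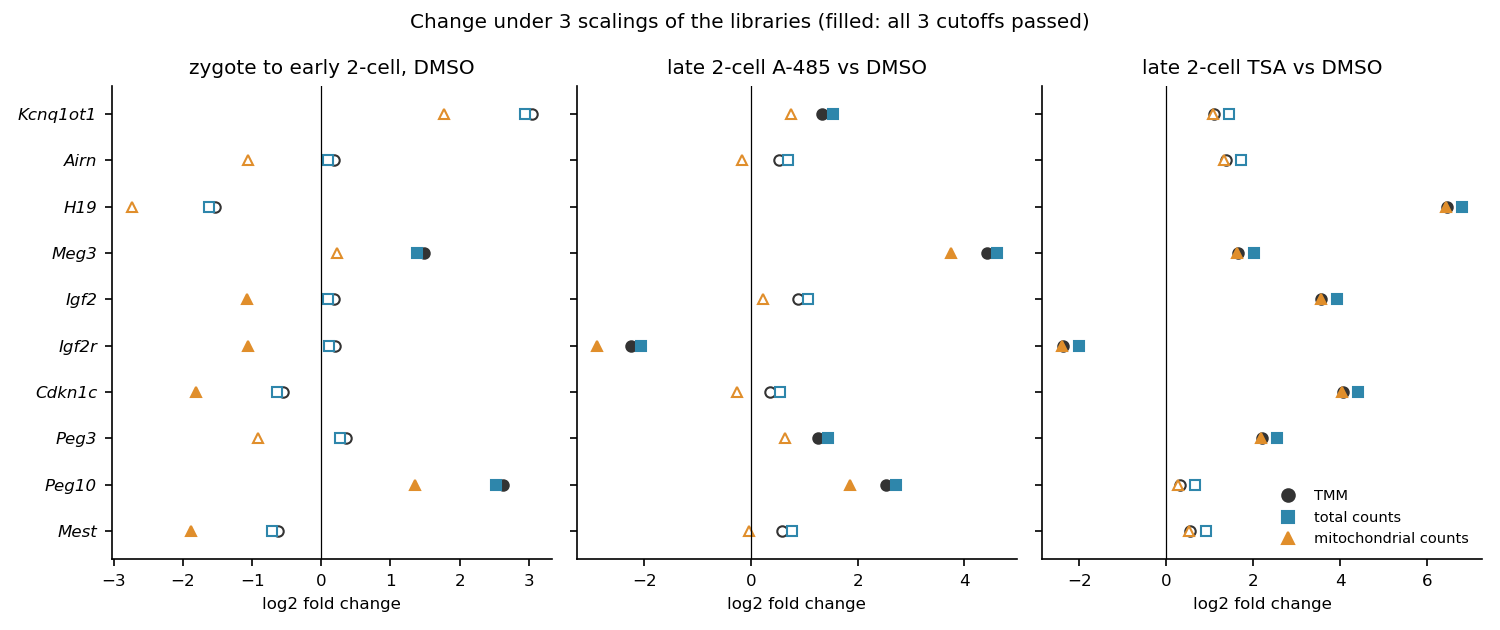
Log2 fold change of each imprinted gene (horizontal axis) under TMM (circles), total counts (squares) and mitochondrial counts (triangles) in 3 comparisons; filled symbols passed all 3 cutoffs. Triangles lie clearly left of the circles in the 2 comparisons in which mitochondrial shares differed most, where Peg3 and Kcnq1ot1 lose their late 2-cell A-485 calls.

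Over all 4 ATAC lists, 7 of the 10 members had a peak within 1 kb of an annotated start in at least 1 list. Late 1-cell DMSO had 3 such members (Kcnq1ot1, Meg3 and Mest) beside 12.8% of 55144 annotated genes, and late 1-cell A-485 had 3 (Kcnq1ot1, Igf2r and Peg3) beside 11.9%. Early 2-cell DMSO had Kcnq1ot1 alone, beside 16.2%, and early 2-cell A-485 had 6 (Kcnq1ot1, Meg3, Igf2, Igf2r, Cdkn1c and Peg3) beside 19.9%. The lists differ in size, with 10214, 7094, 27693 and 13712 peaks in that order, and the DMSO early 2-cell list, the longest, held the fewest members. Kept to the 7094 strongest peaks of each list, early 2-cell A-485 held 2 members (Igf2 and Kcnq1ot1), beside 11.8% of annotated genes. The other 4 thus rest on its weaker peaks. Early 2-cell DMSO then held Kcnq1ot1 alone, beside 4.63%. Members have 1 to 11 annotated starts, and a peak at any of them counts. Counted from the 5′-most start of each gene alone, early 2-cell A-485 held 4 members (Cdkn1c, Igf2r, Kcnq1ot1 and Peg3), beside 18.4%. H19, Peg10 and Airn had no peak within 1 kb in any list.

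**Figure D5:**
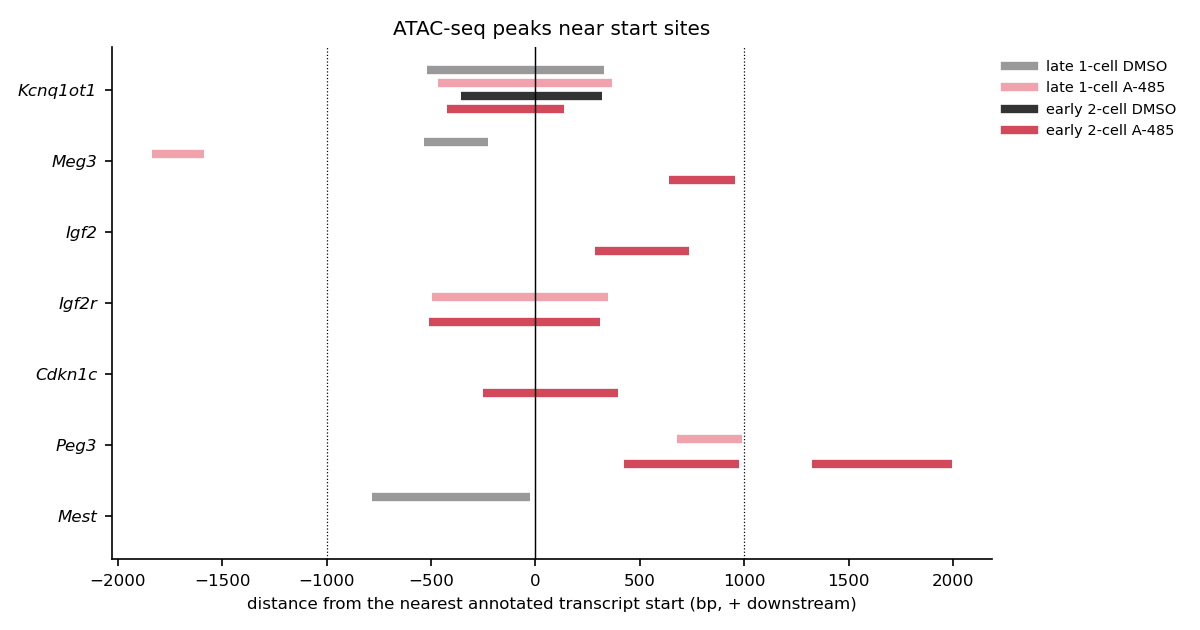
Position of ATAC peaks (bars, drawn to width) around the nearest annotated transcript start of 7 imprinted genes, in bp along the direction of transcription (horizontal axis), for the 4 peak lists in grey (DMSO) and red (A-485); dotted lines mark 1 kb. Kcnq1ot1 has a bar over the start in all 4 lists, and Igf2r has one in the A-485 lists alone.

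Of 21 imprinting control regions that the study used, 17 methylated in oocytes and 4 in sperm, late 1-cell DMSO had a peak in 1, late 1-cell A-485 in 3, early 2-cell DMSO in 3 and early 2-cell A-485 in 7. The Impact region was in every list, Peg3 and Dlk1-Gtl2 were in both A-485 lists and in neither DMSO list, and the Zrsr1 region was in the early 2-cell DMSO list only. The peaks of each list covered 5.31, 4.39, 14.8 and 8.92 Mb of the genome in that order. Covered length is a loose yardstick, because at early 2-cell it was lower with A-485 while the share of genes with a start-site peak was higher (19.9% against 16.2%). Kept to the 7094 strongest peaks of each list, the regions with a peak numbered 1, 3, 0 and 1 in the same order.

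Imprinted genes outside the 10 members were described from lists of neighbours and of other clusters. Of 38 cluster neighbours, 8 of 29 tested were up-regulated and 1 down-regulated in late 2-cell A-485, and 9 and 4 of 33 in TSA. Over all genes, 10.5% were called higher and 16.8% lower in A-485, and 13.8% and 13.9% in TSA, and the counts of the other lists stand beside the same shares. Of 35 other imprinted genes, 9 of 28 were up-regulated and 3 down-regulated in A-485, and 7 and 5 of 30 in TSA. Rasgrf1, a paternally expressed exchange factor gene, had 20.2 and 12.6 CPM with A-485 against 0.601 and 0.318 (log2 fold change 5.09 ± 0.50). Peg13, a paternally expressed noncoding RNA, had 5.58 and 5.15 CPM with TSA against 0.670 and 0.690 (2.84 ± 0.39). Of 27 genes imprinted through H3K27me3, the list the study used, 3 of 13 tested rose and 2 fell in A-485, and 5 rose and 1 fell of 18 in TSA. At early 2-cell, 29 of the 35 other imprinted genes were tested with A-485. Only 1 was called, lower, beside 0.402% of all genes called higher and 7.90% lower. It was Zrsr1, a splicing factor gene of the paternal allele, with 2.15 and 3.04 CPM against 37 and 34.3 (-3.83 ± 0.23, adjusted p = 1.78e-07, edgeR).

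Among 11 factors that read or keep imprints, 5 were down-regulated in late 2-cell A-485 (16.8% of all genes) and 3 in TSA (13.9%), and none was up-regulated by edgeR in either. Trim28, the co-repressor that ZFP57 recruits, had 18.2 and 15.9 CPM with A-485 against 222 and 240 (-3.80 ± 0.15, adjusted p = 8.5e-09, edgeR), and 68.6 and 63.3 with TSA against 234 and 231 (-1.95 ± 0.08, adjusted p = 2.47e-08, edgeR). It was already lower with A-485 at early 2-cell (-1.41 ± 0.14, adjusted p = 1.89e-05, edgeR). There it was the only 1 of the 11 factors called, beside 7.90% of all genes called lower. Dppa3, which protects maternal methylation, had 124 and 156 CPM with A-485 against 811 and 635. Setdb1, a histone H3K9 methyltransferase gene, and Zfp445, a zinc-finger gene that binds control regions, had log2 fold changes of -1.85 ± 0.14 and -1.41 ± 0.17 with A-485. In control embryos Zfp57 fell from 2840 and 2780 CPM at zygote to 1050 and 1030 CPM at early 2-cell, and Trim28 rose from early to late 2-cell (1.86 ± 0.13, adjusted p = 5.25e-07, edgeR).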

How the data were processed

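Total RNA-seq was made by the authors with a strand-marking low-input kit. Per the submitters' processing notes, reads were trimmed with Trimmomatic 0.39, aligned to GRCm38 with STAR 2.7.8a and quantified with RSEM 1.3.1, and DESeq2 1.32.0 was used. The strand setting and annotation release are not given in the sources used here. The authors deposited RSEM expected counts per gene, and beside them FPKM, which RSEM scales to an effective length estimated in each library. Library totals ran from 13206163 to 32585987. The authors deposited 1 ATAC peak list per stage and treatment, made from both replicates. In these lists, as deposited by the authors, each peak carries the fold enrichment over local background and the −log10 q-value of the peak caller, and a score scaled from the reproducibility analysis. CUT&RUN files were not used.

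The members and gene lists were chosen with earlier results of these data known. Gene identifiers were matched to GENCODE M21 (55144 of 55385). Expected counts were rounded, genes with at least 10 counts over the 4 libraries compared were kept, and edgeR 4.0.16 in R 4.3.3 gave quasi-likelihood tests with TMM scaling and Benjamini-Hochberg adjustment over all genes tested. A call took an adjusted p below 0.05 with at least 2-fold difference and 1 FPKM in either group. Interactions were called on the adjusted p alone. The ± after a log2 value is its SE. Every member was named, and of each list up to the 4 genes of largest change in a comparison were eligible, with overlapping or adjacent partners. Alternatives were DESeq2 1.42.0, total-count and mitochondrial scaling, no count filter, no FPKM cutoff, 1 fit over all 16 libraries, other controls, a block on the replicate number and leaving out each library. Same-numbered libraries deviated together with correlations of -0.042 to 0.106, so the numbers were not taken as pairs. Scripts were tested on simulated data. Intervals of count ratios cover counting error only.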

Additional observations from a re-analysis of the deposited data

Results flagged for a closer look

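The A-485 effect differed between late and early 2-cell embryos for 5 members by a test of the difference itself (edgeR interaction over 8 libraries). On the log2 scale the difference was 4.67 for Meg3, 3.20 for Peg10, 1.41 for Peg3 and 1.3 for Kcnq1ot1. For Igf2r it was -2.05. The same test between early 2-cell and zygote, added after the values were seen, gave 5.07 for Kcnq1ot1. With 2 libraries a group, no library was tested for standing apart.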

How the results depend on the processing

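Of 304 recomputed log2 fold changes over 26 pairs of member and comparison, 284 kept their direction and call, 3 lost the call, 13 gained one and 4 reversed. Mitochondrial scaling left 3 members called in late 2-cell A-485 (2 higher, 1 lower), where 1517 of 22822 genes were called higher and 5558 lower. It gave 5 from zygote to early 2-cell (1 higher, 4 lower), where 1283 of 20106 genes were called higher and 7938 lower. Under mitochondrial scaling Mest in late 2-cell A-485 was -0.04, and from zygote to early 2-cell Igf2 was -1.07 and Igf2r -1.06. Leaving out 1 library moved Igf2 from zygote to early 2-cell between -0.16 and 0.61. Without the FPKM cutoff 1 member, Kcnq1ot1, was called in zygotes. The replicate block raised the early 2-cell against zygote interaction to 2 members by adding Peg10, added H19 to the TSA against A-485 interaction (6 members) and called Meg3 from early to late 2-cell (-1.36). It changed no other call. Meg3 was called there also with no count filter and in the fit of all 16 libraries (each -1.32), without early 2-cell DMSO replicate 1 (-1.58) and without late 2-cell DMSO replicate 2 (-1.90). It was not called without late 2-cell DMSO replicate 1 (-0.88) or with the TSA experiment's controls (-0.86). The cause of these changes was not tested.

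With only the 5′-most start or only the 7094 strongest peaks, late 1-cell DMSO had 1 member with a peak, beside 11.8% and 9.61% of annotated genes. With the strongest peaks, early 2-cell A-485 had 2 members, beside 11.8%, and early 2-cell DMSO had 1, beside 4.63%. Control regions with a peak then numbered 0 in early 2-cell DMSO and 1 in early 2-cell A-485. With 2 libraries a group and pooled peak lists, small changes and peak differences had little or no replicate check.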

Other observations

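Of the 14268 genes compared over 16 libraries by log2(FPKM + 0.1), those whose pattern was most like that of Kcnq1ot1 were mitochondrially encoded: mt-Nd4 (Pearson's r = 0.983) and mt-Nd2, mt-Nd5, mt-Cytb and mt-Rnr2 (each 0.980). The pseudocount exceeds the FPKM of Kcnq1ot1 in zygotes, so its loss there weighs little, and libraries of a stage share their depth and mitochondrial share. This is a description across libraries that fall into stages.

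Among genes imprinted through H3K27me3, Runx1, a transcription factor gene, had 7.98 and 8.54 CPM in late 2-cell A-485 against 0.739 and 0.794, and 26.9 and 26 CPM with TSA against 0.749 and 0.905. Mbnl2, a splicing regulator gene, had 6.23 and 9.43 CPM against 1.34 and 1.16 with A-485, and 17.6 and 17.2 CPM against 0.906 and 0.216 with TSA. Both passed the edgeR cutoffs in each comparison.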
